A study of Mus musculus with 21 samples.

Results

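The expression of 10 genes of the endoplasmic reticulum (ER) stress response and the integrated stress response was followed across forebrain RNA of 21 mice: Atf3, Atf4, Ddit3, Trib3, Chac1, Xbp1, Hspa5, Herpud1, Asns and Sesn2. They were taken by gene symbol as members of the pathway. The rule uses no measured value, but the genes were chosen with earlier results of these data known. They are 10 of the 55401 genes in the count table. All 10 were found by symbol and passed the filter on low counts in every fit. The study asked how the human APOE allele alters tau-driven disease in P301S tau (PS19) mice. The parental lines E2H, E3H and E4H, with 3 mice each, are homozygous for human APOE2, APOE3 or APOE4 in place of mouse Apoe on a C57BL6 background and were killed at 9 to 10 months of age. PS/E2H, PS/E3H and PS/E4H, with 4 mice each, are homozygous for the same alleles and also carry 1 copy of a P301S human tau transgene from B6/C3H mice, and were killed at hindlimb paralysis. Tau genotype, paralysis, strain mixture and age at death therefore cannot be told apart wherever PS19 mice are set against their parental line. The humanized APOE locus is shared by all 6 groups. The mice were male apart from 1 female in E4H, 1 in PS/E2H and 2 in PS/E4H. The labels do not identify them, so sex could not be used as a covariate. Sex was unevenly spread between PS19 and parental mice of the APOE2 and APOE4 lines. It therefore cannot be told apart from tau in those lines or across all 6 groups. The study reported a later median age at paralysis for PS/E3H than for PS/E2H or PS/E4H mice. Allele, age at death and sex therefore cannot be told apart between PS19 groups, nor allele and sex between E4H and the other parental lines. The same limit holds for the interactions of tau with allele.

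Unfolded proteins in the ER are sensed by 3 membrane proteins, PERK, IRE1 and ATF6. PERK and the kinases GCN2, PKR and HRI phosphorylate the initiation factor eIF2, which lowers translation in general while allowing translation of ATF4, and this shared arm is called the integrated stress response. ATF4 and its partners then raise genes for amino acid supply, tRNA charging and, under lasting stress, CHOP (the product of Ddit3), whereas IRE1-spliced XBP1 and ATF6 raise chaperones such as BiP (the product of Hspa5) and the degradation machinery. Gene counts show the total RNA of a gene. They show neither the splicing of Xbp1 nor the translation of Atf4.

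Total counts per mouse were 59265459 to 75932183. The transgene promoter of PS19 mice comes from the prion gene, and counts assigned to Prnp were 818 to 1070 CPM (counts per 1000000 counts, scaled by the TMM method) in parental mice and 1390 to 1930 CPM in PS19 mice, without overlap. Counts assigned to Mapt, the mouse tau gene, were not higher in PS19 mice (420 to 504 CPM) than in parental mice (425 to 505 CPM). In the APOE4 line, PS/E4H mice (420 to 473 CPM) lay below E4H mice (496 to 505 CPM). Mouse Apoe kept 617 to 1164 counts in every group. Forebrain markers were present in every mouse (summed level 422 to 673 CPM over 6 genes), while 4 cerebellar markers summed to 0.677 to 11.3 CPM, passing 10 CPM in PS/E2H replicate 4 and PS/E3H replicate 2. In bulk tissue, fewer cells of a type and less RNA per cell cannot be told apart.

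The 10 genes differed widely in level. On the FPKM scale (fragments per kilobase of transcript, scaled to library size), which allows genes to be compared, Hspa5 had the highest mean over the 21 mice (57.1), followed by Atf4 (40.1), Asns (38.9), Herpud1 (23.3), Xbp1 (22.8) and Ddit3 (13.9). Sesn2 (3.91), Chac1 (3.64), Atf3 (1.37) and Trib3 (0.599) were lower. Hspa5 stood at the 98.2 percentile of detected genes and Trib3 at the 60.1 percentile. The spread over mice was widest for Atf3. The highest mouse was 9.16 times the lowest in CPM for Atf3 and 2.36 times for Trib3, against 1.34 to 1.91 times for the other 8 genes. Trib3 rested on 58 to 131 counts per mouse and Atf3 on 66 to 503.

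Motifs for the factors of the pathway were searched in RefSeq promoter windows of GRCm38.p6, from 250 bases before to 50 after the start, on both strands. The letters TGATGNAA, the C/EBP-ATF composite element bound by ATF4, were found in 5 of the 10 genes (Atf3, Trib3, Chac1, Herpud1 and Asns) and in 3.97% of 32851 windows. The ER stress response element, CCAAT and CCACG with 9 bases between, was found in Hspa5 and in 0.119% of windows. TGACGTGG, an XBP1 and ATF6 element found in 0.676% of windows, and TGACGTCA, the cyclic AMP response element found in 1.79%, were in none of the 10. A match in letters is a description and not evidence of binding. The stretches holding a match are shown because they carry the letters of a pathway motif in genes whose levels are compared here. Each reads 5′ to 3′ in the direction of the gene, with the match in capitals (TTGCATCA and TTACATCA are the element on the other strand).
Atf3, chr1:191183390-191183489, minus strand: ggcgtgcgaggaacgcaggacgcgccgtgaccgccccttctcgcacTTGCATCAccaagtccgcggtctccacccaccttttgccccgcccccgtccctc
Herpud1, chr8:94386271-94386370, plus strand: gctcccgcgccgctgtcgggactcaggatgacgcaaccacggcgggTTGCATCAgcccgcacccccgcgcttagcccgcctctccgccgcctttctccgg
Chac1, chr2:119351003-119351102, plus strand: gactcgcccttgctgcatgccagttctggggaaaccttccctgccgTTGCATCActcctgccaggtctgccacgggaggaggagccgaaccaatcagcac
Asns, chr6:7693214-7693243, minus strand: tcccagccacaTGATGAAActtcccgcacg
Trib3, chr2:152344028-152344057, minus strand: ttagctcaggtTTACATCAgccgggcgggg
Hspa5, chr2:34772020-34772049, plus strand: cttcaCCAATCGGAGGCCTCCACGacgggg
The match lies at -110 to -103 from the start in Atf3, at -112 to -105 in Herpud1 and at -193 to -186 in Chac1, outside annotated exons. In Asns it lies at -23 to -16 and in Hspa5 at -65 to -47, both inside an exon of the GENCODE M21 annotation. In Trib3 it lies at 15 to 22 from the RefSeq start, before the first exon of the M21 annotation.

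Across the 3 APOE lines, 4 of the 10 genes were higher in PS19 mice and none was lower. In the fit of all 6 groups adjusted for APOE line (edgeR quasi-likelihood test, Benjamini-Hochberg adjusted p under 0.05), Atf3 was 2.94-fold higher, Ddit3 1.21-fold, Sesn2 1.19-fold and Herpud1 1.13-fold. Over all 22863 genes tested, 21% passed, 11.4% higher and 9.63% lower. The median log2 difference was 0.068 for the 10 genes and -0.006 for all genes. Atf3 alone also passed a 2-fold limit, as did 2.6% of all genes. The 4 genes passed in each of 7 alternative fits and without any single mouse, and also without both mice with cerebellar markers over 10 CPM.

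Atf3 (ENSMUSG00000026628, GRCm38 chromosome 1, 191170296 to 191218039, minus strand) encodes a transcription factor that is induced by ATF4 and by many other stress and injury signals. Its levels were 1.70, 1.91 and 1.53 CPM in E2H mice, 1.97, 1.44 and 1.31 CPM in E3H mice and 1.62, 0.929 and 0.888 CPM in E4H mice. They were 2.69, 2.50, 4.78 and 2.02 CPM in PS/E2H mice, 3.06, 6.24, 4.32 and 5.10 CPM in PS/E3H mice and 8.13, 3.90, 5.15 and 6.05 CPM in PS/E4H mice. Every PS19 mouse exceeded every parental mouse. The margin was narrow between PS/E2H replicate 4 (2.02 CPM) and both E3H replicate 1 (1.97 CPM) and E2H replicate 2 (1.91 CPM). The log2 difference adjusted for line was 1.56 ± 0.225 (SE, edgeR adjusted p = 2.82e-05). Within lines it was 0.80 ± 0.302 for APOE2 (adjusted p = 0.356), 1.56 ± 0.265 for APOE3 (adjusted p = 0.0124) and 2.34 ± 0.307 for APOE4 (adjusted p = 0.00139, 5.06-fold). The APOE3 and APOE4 values were past 2-fold, as were 1.32% and 2.98% of genes in those comparisons. The APOE3 call was lost without E3H replicate 2 (adjusted p = 0.0599) and without E3H replicate 3 (adjusted p = 0.0675), and the APOE4 call passed without any single mouse. The APOE2 value ranged from 0.49 to 0.95 over leave-outs. It was lowest without PS/E2H replicate 3, the mouse with the highest Atf3 level of its group. The 3 genes whose log2 CPM followed Atf3 most closely over the 21 mice, out of 22853 compared, were Fcer1g, an Fc receptor subunit of myeloid cells (r = 0.945), Ctsc, the lysosomal protease cathepsin C (r = 0.944), and Slc14a1, a urea transporter (r = 0.944). These correlations share the tau contrast and the libraries, and with group means removed they were 0.791, 0.699 and 0.652.

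Ddit3 (ENSMUSG00000025408, chromosome 10, 127290774 to 127296288, plus strand) encodes CHOP, the transcription factor linked to cell death under lasting ER stress. It was 25.5, 27.6 and 23.9 CPM in E2H mice, 23.8, 21.8 and 23.1 CPM in E3H mice and 20.5, 21.04 and 20.4 CPM in E4H mice. It was 29.7, 30.3, 24.0 and 30.7 CPM in PS/E2H mice, 24.4, 29.0, 25.1 and 27.5 CPM in PS/E3H mice and 31.7, 27.0, 27.5 and 28.6 CPM in PS/E4H mice. The groups overlapped in the APOE2 line and were apart in the APOE3 and APOE4 lines, where E4H was the lowest group of all 6. The share of all genes whose groups were apart was not counted. For this and the other genes, separation of groups only describes the values. Adjusted for line, the log2 difference was 0.28 ± 0.0588 (adjusted p = 0.0014). Within lines it was 0.15 for APOE2 (adjusted p = 0.737), 0.20 for APOE3 (adjusted p = 0.217) and 0.47 ± 0.0825 for APOE4 (adjusted p = 0.00556). Of its exon bases, 6.13% overlap a second annotated Ddit3 entry on the same strand, which held 1 count in total over the 21 mice.

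Sesn2 (ENSMUSG00000028893, chromosome 4, 132492032 to 132510501, minus strand) encodes sestrin 2, a leucine sensor that restrains mTORC1. It was 12.1, 14.4 and 13.6 CPM in E2H mice against 16.4, 16.8, 15.8 and 19.2 CPM in PS/E2H mice. It was 12.5, 13.3 and 13.2 CPM in E3H mice against 14.7, 14.9, 14.0 and 18.2 CPM in PS/E3H mice, and 14.8, 13.6 and 12.5 CPM in E4H mice against 17.4, 14.3, 13.3 and 15.1 CPM in PS/E4H mice. Here the APOE4 groups overlapped and the other lines did not. The Sesn2 interactions had edgeR unadjusted p = 0.214 for APOE4 against APOE2, 0.507 for APOE4 against APOE3 and 0.496 for APOE2 against APOE3. No order of the lines is therefore read from these values. The log2 difference was 0.25 ± 0.0645 adjusted for line (adjusted p = 0.00769), and 0.35 for APOE2, 0.24 for APOE3 and 0.14 for APOE4, with adjusted p = 0.322, 0.232 and 0.476.

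Herpud1 (ENSMUSG00000031770, chromosome 8, 94386438 to 94395377, plus strand) encodes an ER membrane protein of the degradation machinery. It was 62.1, 61.0 and 55.1 CPM in E2H mice against 62.8, 57.6, 58.6 and 74.6 CPM in PS/E2H mice. It was 51.0, 51.3 and 49.4 CPM in E3H mice against 62.2, 54.7, 59.4 and 63.8 CPM in PS/E3H mice, and 57.6, 54.2 and 53.8 CPM in E4H mice against 61.4, 63.7, 60.5 and 63.7 CPM in PS/E4H mice. The APOE3 and APOE4 groups did not overlap, and the APOE2 groups did. The log2 difference was 0.17 ± 0.0462 adjusted for line (adjusted p = 0.00993). Within lines it was 0.09 for APOE2 (adjusted p = 0.854), 0.24 for APOE3 (adjusted p = 0.085) and 0.17 for APOE4 (adjusted p = 0.0692). The APOE2 value rested on PS/E2H replicate 4, the mouse with the highest Herpud1 level and with cerebellar markers at 11.3 CPM, since without it the value was -0.001.

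**Figure D1:**
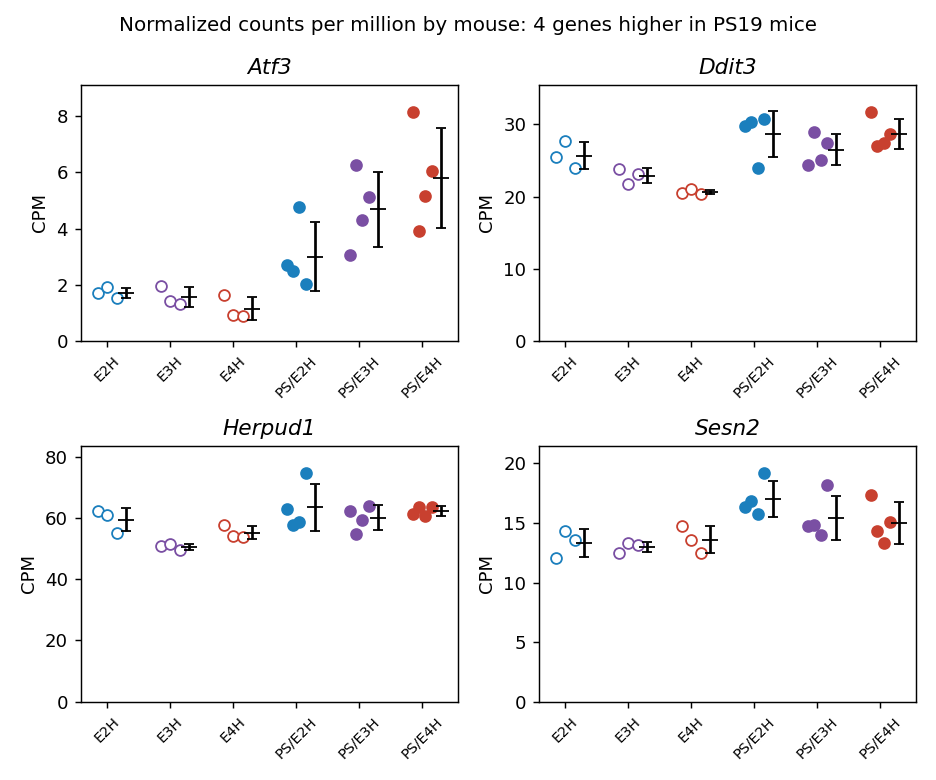
Normalized counts (CPM, linear axis from 0) of Atf3, Ddit3, Herpud1 and Sesn2 in each of the 21 mice, by group, with open points for parental and filled points for PS19 mice and a black mark for the mean ± SD. Atf3 lies at 0.888 to 1.97 CPM in the parental mice and 2.02 to 8.13 CPM in the PS19 mice, and the other 3 genes differ by far less.

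Cell type markers differed between PS19 and parental mice in the same libraries. Summed CPM over 8 markers each was 386 to 505 in parental and 556 to 1040 in PS19 mice for microglia, 3720 to 4280 and 5330 to 7310 for astrocytes, 6600 to 7220 and 5760 to 7010 for neurons, 4920 to 7240 and 6230 to 9460 for oligodendrocytes, and 166 to 209 and 171 to 239 for endothelial cells. Higher in PS19 mice were 7 of 8 microglial, 8 of 8 astrocyte, 5 of 8 oligodendrocyte, 3 of 8 endothelial and 2 of 8 neuronal markers. Lower were 5 of 8 neuronal and 4 of 6 forebrain markers. These counts are from the fit adjusted for line, where 11.4% of all genes were higher and 9.63% lower. None of these cell type and forebrain markers was at 0 in any mouse, while 3 of the 4 cerebellar markers (Gabra6, Pcp2 and Barhl1) were at 0 counts in some mice. The part of cell composition in the differences of Atf3, Ddit3, Sesn2 and Herpud1 was not tested.

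Atf4 (ENSMUSG00000042406, chromosome 15, 80255184 to 80257541, plus strand), the central factor of the integrated stress response, did not pass adjusted for line, with a log2 difference of -0.10 ± 0.0572 (adjusted p = 0.223). In E4H mice it stood at 117, 122 and 118 CPM and in PS/E4H mice at 96.6, 99.0, 96.6 and 106 CPM, without overlap, and in this line it fell by 0.26 ± 0.0563 on the log2 scale (adjusted p = 0.0128). That call was lost without E4H replicate 1 (adjusted p = 0.0585), without E4H replicate 2 (adjusted p = 0.0755) and in the fit of all 6 groups together (adjusted p = 0.0774). Levels were 93.2, 101.3 and 92.7 CPM in E3H mice and 102, 86.2, 88.1 and 90.0 CPM in PS/E3H mice, and 103, 117 and 99.4 CPM in E2H mice and 96.7, 122, 90.1 and 121 CPM in PS/E2H mice. These 2 lines overlapped between parental and PS19 mice, and PS/E2H mice fell into a high and a low pair.

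The other 5 genes did not pass in any tau comparison. Hspa5 (ENSMUSG00000026864, chromosome 2, 34771970 to 34777547, plus strand), which encodes the chief ER chaperone BiP, ranged from 230 to 286 CPM in parental and 237 to 322 CPM in PS19 mice, with a log2 difference of 0.10 ± 0.048 adjusted for line (adjusted p = 0.149). Xbp1 (ENSMUSG00000020484, chromosome 11, 5520659 to 5525893, plus strand), whose spliced product is the transcription factor made after IRE1 activation, ranged from 75.0 to 108 CPM and from 69.9 to 96.7 CPM (-0.04 ± 0.0589, adjusted p = 0.681). For both genes the widest groups were E2H and PS/E4H. Asns (ENSMUSG00000029752, chromosome 6, 7675169 to 7693254, minus strand), asparagine synthetase, ranged from 98.0 to 132 CPM and from 106 to 129 CPM (0.04 ± 0.0418, adjusted p = 0.626). Chac1 (ENSMUSG00000027313, chromosome 2, 119351229 to 119354381, plus strand), a glutathione-degrading enzyme, ranged from 4.62 to 8.83 CPM and from 5.19 to 7.90 CPM (0.001 ± 0.0946, adjusted p = 0.996), a value near 0 whose sign changed with the fit. Trib3 (ENSMUSG00000032715, chromosome 2, 152337422 to 152344032, minus strand), a pseudokinase induced by ATF4 and CHOP, ranged from 0.915 to 1.92 CPM in parental and from 0.814 to 1.92 CPM in PS19 mice (-0.07 ± 0.164, adjusted p = 0.819). Taken over the 3 lines, parental and PS19 mice overlapped for all 5 genes. Within lines the groups were apart only for Xbp1 in the APOE3 line (75.7 to 77.5 CPM in E3H and 71.9 to 75.2 CPM in PS/E3H mice). The share of all genes that were apart was not counted, so no result is read from this.

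**Figure D2:**
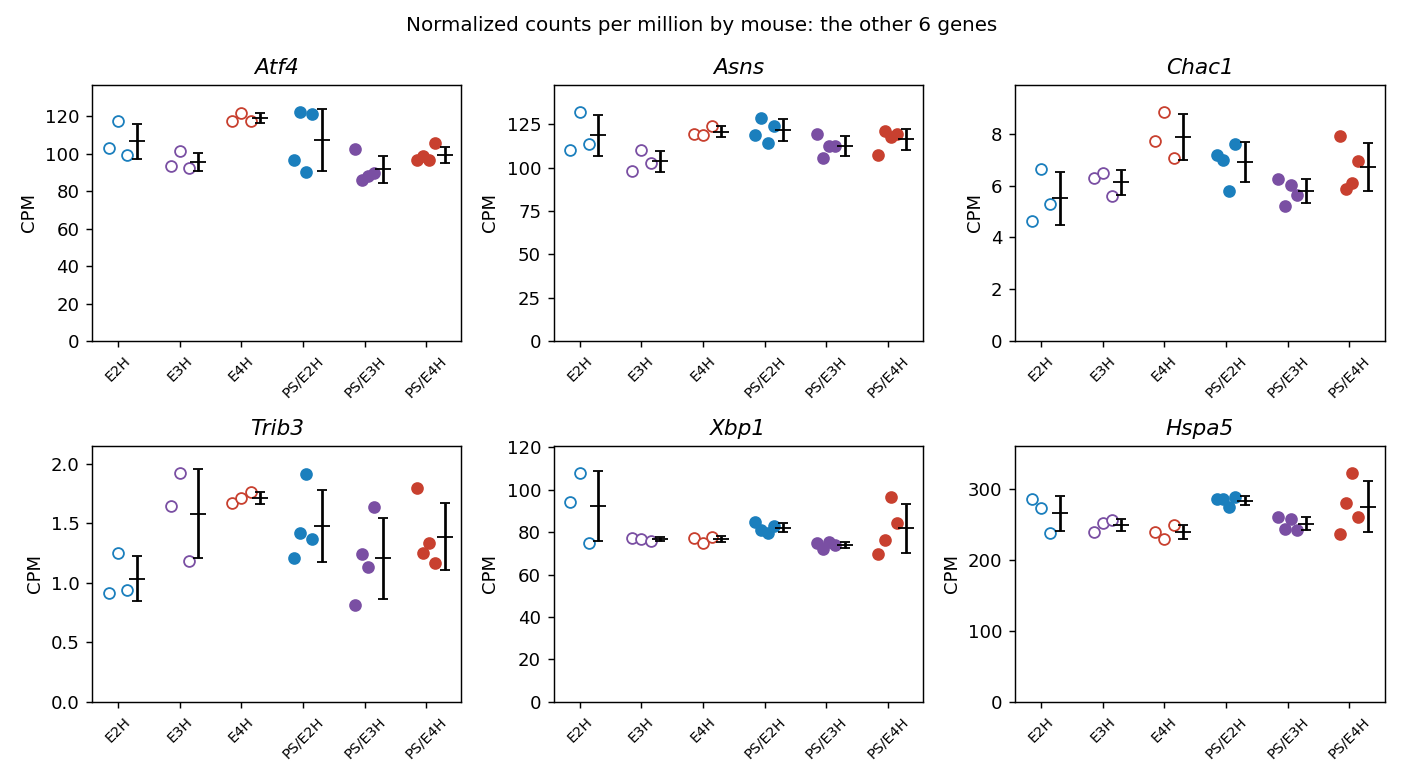
Normalized counts (CPM, linear axes from 0) of Atf4, Asns, Chac1, Trib3, Xbp1 and Hspa5 in each mouse by group, drawn as in the plot of the 4 raised genes, with the mean ± SD in black. Parental and PS19 mice overlap for every gene over the 3 lines, and Atf4 in E4H mice (117 to 122 CPM) lies above PS/E4H mice (96.6 to 106 CPM).

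By line, the number of the 10 genes that passed for tau was 0 for APOE2, 1 for APOE3 (Atf3) and 3 for APOE4 (Atf3 and Ddit3 higher, Atf4 lower). The shares of all genes that passed were 0.752%, 5.37% and 15.6%, so the counts rose with the number of genes called in each line. For APOE2, DESeq2 and limma also passed 0 of the 10, and 2 of 10 (Atf3 and Sesn2) had an unadjusted edgeR p under 0.05, as did 10.7% of all genes.

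Whether the tau difference itself depended on the APOE allele was tested by interaction, and none of the 10 genes passed. By edgeR 0% of all genes passed in each of the 3 interactions, and by DESeq2 123, 9 and 11 genes passed for APOE4 against APOE2, APOE4 against APOE3 and APOE2 against APOE3, with none of the 10 among them. At an unadjusted p under 0.05 the 10 genes gave 4, 1 and 1, beside 10.1%, 3.81% and 5.72% of all genes. For APOE4 against APOE2 the 4 were Atf3 (1.53 ± 0.443 on the log2 scale, adjusted p = 0.335), Ddit3 (0.31 ± 0.137, adjusted p = 0.464), Trib3 (-0.82 ± 0.332, adjusted p = 0.433) and Chac1 (-0.55 ± 0.224, adjusted p = 0.433). The Atf3 difference was larger in the APOE4 line than in the APOE2 line, and the interaction did not pass after adjustment.

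**Figure D3:**
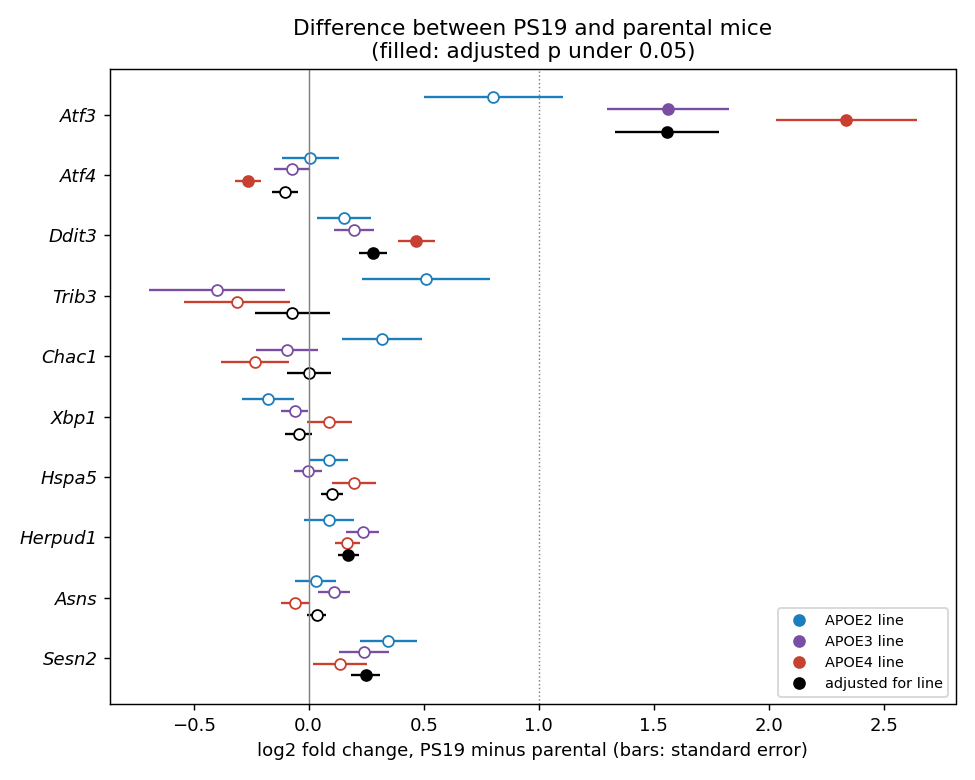
Log2 fold change of PS19 over parental mice for the 10 genes in the APOE2, APOE3 and APOE4 lines and adjusted for line, with bars for the standard error, filled points where the adjusted p is under 0.05 and a dotted line at 2-fold. Atf3 lies at 0.80, 1.56 and 2.34 in the 3 lines and at 1.56 adjusted for line. The values of all other genes lie within 1 of 0.

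Between APOE alleles, none of the 10 genes passed in any of 6 comparisons. In parental mice 0.178% of all genes passed for APOE2 against APOE3, 0.162% for APOE4 against APOE3 and 0.216% for APOE4 against APOE2. In PS19 mice the shares were 0.113%, 0.0197% and 0.119%. At an unadjusted edgeR p under 0.05 the 10 genes gave 1, 4 and 3 in parental mice, beside 14.1%, 6.67% and 12.4% of all genes. In PS19 mice they gave 3, 0 and 1, beside 11.7%, 6.51% and 12.3%. The 4 of APOE4 against APOE3 were Atf4, Asns, Chac1 and Herpud1, all higher in E4H mice.

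Atf4 had the smallest p among these. E4H mice (117 to 122 CPM) lay above E3H mice (92.7 to 101.3 CPM), with a log2 difference of 0.31 ± 0.0561 (edgeR adjusted p = 0.0906). DESeq2 passed this gene (adjusted p = 0.000193), while limma and the other edgeR fits did not. Asns, a target of ATF4, was at 119, 118 and 124 CPM in E4H mice and 98.0, 110 and 102 CPM in E3H mice (0.22 ± 0.0584, adjusted p = 0.366). Chac1, another target, was at 7.71, 8.83 and 7.06 CPM and 6.29, 6.50 and 5.59 CPM (0.36 ± 0.135, adjusted p = 0.64). The high Atf4 level of the E4H mice enters both this comparison and the tau comparison of the APOE4 line, which share those 3 mice.

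Of the genes that favoured 1 side between E4H and E2H mice, Ddit3 was lower in E4H (-0.31 ± 0.0914), and Trib3 (0.74 ± 0.244) and Chac1 (0.52 ± 0.172) were higher, each with adjusted p = 0.363. Trib3 was at 1.67, 1.71 and 1.76 CPM in E4H mice and 0.915, 1.25 and 0.936 CPM in E2H mice. Among PS19 mice, Atf3 was higher in PS/E4H than in PS/E2H mice by 0.95 ± 0.29 (adjusted p = 0.299), and the groups overlapped, since PS/E2H replicate 3 at 4.78 CPM exceeded PS/E4H replicate 2 at 3.90 CPM. Hspa5 was at 286, 286, 275 and 289 CPM in PS/E2H mice and 261, 244, 257 and 243 CPM in PS/E3H mice (0.17 ± 0.0588, adjusted p = 0.403).

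Within groups, mice differed in ways the design does not name, and some of the 10 genes varied together. With group means removed, the largest correlations of log2 CPM over the 21 mice were between Xbp1 and Hspa5 (r = 0.775), the chaperone side of the response, and between Atf4 and Asns (r = 0.736), a factor and its target. Without the 2 mice farthest from the median of the first gene these were 0.587 and 0.695. Atf4 and Chac1 gave 0.565, and Atf3 and Trib3 gave 0.615. Atf3 and Atf4 gave -0.523 and Atf3 and Ddit3 0.089, so Atf3 within a group did not follow either of them upward. The values of a pair come from the same libraries. With group means kept, the gene most like Xbp1 over the 21 mice was Pdia6, a disulfide isomerase of the ER (r = 0.869). On the same scale the closest to Asns was Nabp2 (r = 0.878), to Atf4 Nudt3 (r = 0.898), to Ddit3 Acadvl (r = 0.895), to Sesn2 Psap, the saposin precursor of lysosomes (r = 0.882), to Herpud1 Snx1 (r = 0.882), to Hspa5 Ttyh1 (r = 0.844), to Trib3 4933421A08Rik (r = 0.775) and to Chac1 Gm8394 (r = 0.726). These values include the differences between groups. With group means removed they ranged from 0.67 (Ddit3 and Acadvl) to 0.886 (Asns and Nabp2).

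**Figure D4:**
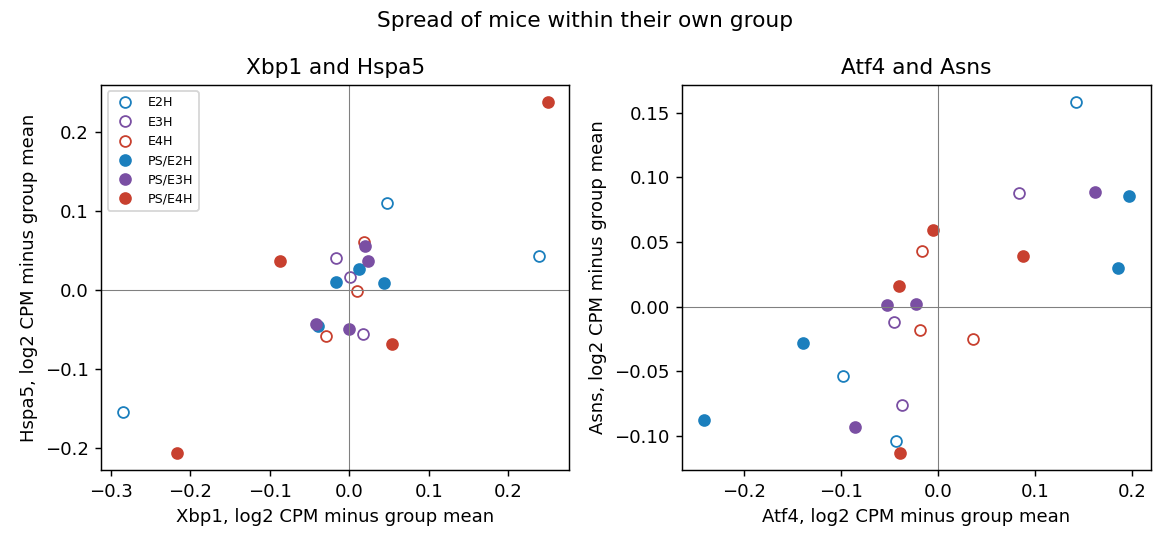
Log2 CPM of each of the 21 mice minus its group mean, for Hspa5 against Xbp1 (left) and Asns against Atf4 (right), with open points for parental and filled points for PS19 mice. Points rise together in both panels (r = 0.775 and 0.736), and on the left the ends are formed by E2H and PS/E4H mice.

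The rest of the pathway was read from 7 lists of 98 genes, of which 97 were tested in the fit adjusted for line. The lists were also chosen with earlier results of these data known. In PS19 mice 31 were higher and 2 lower, beside 11.4% and 9.63% of all genes. The median log2 difference was 0.085 against -0.006 for all genes. By line, 1 was higher of 97 for APOE2, 5 of 97 for APOE3 and 21 of 96 for APOE4, and 2 were lower in APOE4 alone. Of all genes, 0.669%, 3.35% and 8.62% were higher in these lines and 6.98% were lower for APOE4, so the counts rose along with the number of genes called. Between APOE alleles by edgeR, 0 of 96 passed in each comparison of parental mice. In each comparison of PS19 mice 0 of 97 passed. For APOE2 against APOE3, APOE4 against APOE3 and APOE4 against APOE2, the shares of all genes were 0.178%, 0.162% and 0.216% in parental mice. In PS19 mice they were 0.113%, 0.0197% and 0.119%.

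Of 13 genes of the eIF2 kinases and eIF2 control, 2 were higher: Eif2ak2, which encodes the double-stranded RNA sensor PKR (0.91 ± 0.114, adjusted p = 4.84e-06), and Eif2b5, a subunit of the eIF2 exchange factor (0.18). Of 8 sensors and processing factors, Rtcb, the ligase that joins spliced Xbp1, was higher (0.33) and Atf6b, a relative of ATF6, was lower (-0.20). Of 18 chaperones and folding enzymes, 3 were higher, the disulfide isomerases P4hb (0.32 ± 0.0399, adjusted p = 4.12e-06) and Pdia3 (0.20) and the PERK inhibitor Dnajc3 (0.23). Of 14 genes of ER-associated degradation and translocation, Edem1 (0.31), Edem2 (0.28), Selenos (0.26), Os9 (0.24) and Derl1 (0.16) were higher, and Syvn1, the ubiquitin ligase HRD1, was lower (-0.18).

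The shares that passed in these 4 lists were 15.4%, 25%, 16.7% and 42.9%, beside the 21% of all genes. In the 3 lists of ATF4 and CHOP targets the shares were 44.4% for amino acid supply, 50% for tRNA synthetases and 42.9% for transcription and survival. Of 18 genes of amino acid synthesis and transport, 8 were higher and 0 lower, those of smallest p being the serine synthesis genes Psat1 (0.42 ± 0.0504, adjusted p = 2.49e-06) and Phgdh (0.39), the alanine transaminase Gpt2 (0.44) and the transporter genes Slc3a2 (0.29) and Slc1a5 (0.63). Of 12 cytoplasmic tRNA synthetases 6 were higher and 0 lower, among them Aars (0.22), Eprs (0.18), Sars (0.18), Tars (0.15) and Nars (0.12). Of 14 tested transcription and survival genes, 6 were higher and 0 lower. Among them were Ddit4 (0.69), which restrains mTORC1, Nupr1 (0.46), Ndrg1 (0.37) and Cebpg (0.19), a partner of ATF4. Unscaled Ddit4 counts were 1601 to 2340 in parental and 1575 to 6088 in PS19 mice, so the ranges overlapped and the rise was not uniform. Gdf15, a stress-induced hormone, also passed, but it had 0 to 5 counts in parental and 4 to 44 counts in PS19 mice. It was at 0 in all E4H mice, so that PS/E4H mice were at least 7.14-fold higher when E4H is set to 3 counts per library. Psat1, Phgdh and Slc1a5 are also expressed by astrocytes, whose markers were higher in the same mice, and the part of astrocytes in these differences was not tested.

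**Figure D5:**
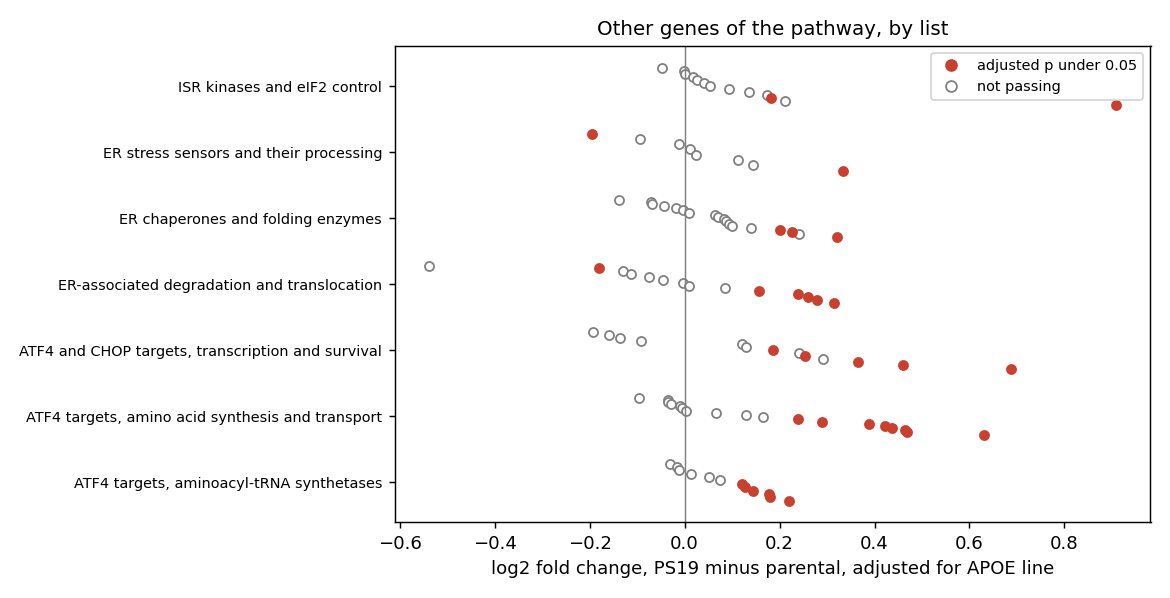
Log2 fold change of PS19 over parental mice, adjusted for APOE line, for the genes of the 7 pathway lists, 1 point a gene, red where the adjusted p is under 0.05 and ordered by value within a list. Red points lie to the right of 0 in every list, with Atf6b (-0.20) and Syvn1 (-0.18) as the exceptions, and Gdf15 is left out because E4H mice had 0 counts.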

How the data were processed

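Poly(A) RNA of 21 forebrains was sequenced as stranded paired reads. Per the labels and the study's methods, the authors trimmed reads with Cutadapt, aligned them to GRCm38.p5 with HISAT2, and used StringTie, gffcompare and ballgown for transcript assembly and quantification; versions, and how counts were taken from the StringTie output, are not given in the sources used here. The authors deposited whole-number counts per gene, without normalization, and FPKM values per gene, scaled for length and library size. Columns were matched to mice by name, and 0 were left unmapped. How StringTie shared reads among overlapping genes could change single counts.

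Counts were fitted with edgeR 4.0.16 (R 4.3.3; TMM, filterByExpr with minimum count 10 and total 15, glmQLFit and glmQLFTest), each pair of groups on its own mice, the 3 interactions on 4 groups each and the tau effect with APOE line as covariate on all 6. P-values were adjusted over all genes tested, and a gene passed at an adjusted p under 0.05. A standard error is the log2 difference divided by the square root of F. CPM used TMM sizes of all 21 mice, and correlations used log2(CPM + 0.1). Fits were tested on simulated data. Alternatives were DESeq2 1.42.0, DESeq2-style size factors in edgeR, no count filter, 1 fit of all 6 groups, limma 3.58.1 on log2(FPKM + 1) or log2(FPKM + 0.1), with a mean FPKM minimum of 0.1 or no filter, the replicate number as a block, and leaving out each mouse. Such fold changes on log2(FPKM + pseudocount) understate low genes.

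Positions and symbols are from GENCODE M21, which names 55141 genes of the count table, and promoters from RefSeq (GRCm38.p6), where all 10 genes had a window. Protein sequences were not used here. The 10 genes, the pathway and marker lists and which values are printed were chosen with earlier results of these data known. The genes named from the lists are those that passed in the fit adjusted for line, at most the 5 of smallest adjusted p in each direction of a list, and for each of the 10 genes those most correlated over 21 mice. Figures used matplotlib 3.10.9 and Python 3.11.15. Total counts were 59265459 to 75932183 (median 63751715), and 3 or 4 mice a group limit the precision. All 27 pairs of mice within groups differed beyond counting noise (lowest chi-square per gene 19.2).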

Additional observations from a re-analysis of the deposited data

Results flagged for a closer look

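Of 30 groups of 4 mice tested (the 10 genes in 3 PS19 groups), 1 held a mouse far from the others. Ddit3 in PS/E2H replicate 3 was at 24.0 CPM, against 29.7, 30.3 and 30.7 CPM in the other 3 mice, and its gap made up 0.857 of the group's range, above Dixon's 95% critical value for 4 samples. Chance flags about 1 in 20 such groups. The same mouse had the highest Atf3 level of its group (4.78 CPM) and the lowest Atf4 level (90.1 CPM).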

How the results depend on the processing

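The count of 4 of the 10 genes in the tau comparison adjusted for line was 4 in all alternatives and all 21 leave-outs. For tau in the APOE3 line the count of 1 became 2 with DESeq2, 0 with limma on log2(FPKM + 1) without a filter, 0 with the replicate block, and 0 to 1 when a mouse was left out (0 without E3H replicate 2 or 3). Atf3 there gave 0.82 (adjusted p = 0.109) with that limma fit, and Herpud1 passed with DESeq2 (adjusted p = 0.0375). For tau in the APOE4 line the count of 3 became 1 with the replicate block and 2 to 3 when a mouse was left out. For E4H against E3H the count of 0 became 1 (Atf4) with DESeq2. The pooled Chac1 value of 0.001 changed sign: -0.009 with DESeq2, -0.006 with DESeq2-style size factors, -0.004 with log2(FPKM + 0.1), -0.006 with log2(FPKM + 1) with or without the filter, -0.001 without a count filter, -0.018 with the block, -0.008 without the mice with cerebellar markers (a fit chosen after seeing the data), and -0.058 to 0.044 over leave-outs. Herpud1 in the APOE2 line gave -0.001 to 0.133 over leave-outs. The causes were not tested, beyond the smaller number of mice in leave-outs.

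Replicate numbers did not pair the mice: of 30 same-numbered pairs 1 had a correlation of deviations over 0.1 (range -0.155 to 0.15), and 6 of 21 mice correlated best with their own number. With the block, Atf3 in the APOE3 line (adjusted p = 0.0529) and Atf4 (0.0589) and Ddit3 (0.051) in the APOE4 line missed the threshold. It changed no other call among the 10 genes.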
